A study of Mus musculus with 6 samples.

Results

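Krt12, Rspo1, Adam33, Igfn1 and Dkkl1 were the 5 genes with the strongest loss of reads in the somatosensory cortex of mice lacking Mef2c in forebrain excitatory neurons, out of 21667 named genes measured by RNA-seq. They were chosen by the size of this loss, as the 5 most negative log2 fold changes of read counts in cKO mice against controls among the 14609 genes with enough reads to test. Their own change between the genotypes is therefore given as a description, without a test. The mice were adult males, 3 controls and 3 Mef2c cKO. Controls were Mef2cfl/fl littermates that carried no Cre, and cKO mice were Mef2cfl/fl; Emx1-Cre. All 6 mice carried the floxed Mef2c allele on a mixed background of SVeV-129 and C57BL/6J. In each genotype replicate 1 was 14 weeks old and replicates 2 and 3 were 12 weeks old. Emx1-Cre acts from the embryonic stage in most excitatory neurons of the forebrain and in some glia, and other cells of the cortex keep the gene.

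MEF2C is a transcription factor of the MADS box family that binds A/T-rich elements and was first studied in muscle, where it drives genes of the contractile apparatus. In the cortex it is abundant in excitatory neurons of the upper and middle layers. The 5 genes do not belong to one pathway. Rspo1 encodes a secreted R-spondin, which binds the receptors LGR4, LGR5 and LGR6 and the ubiquitin ligases ZNRF3 and RNF43, and thereby keeps Frizzled receptors at the cell surface and strengthens Wnt signalling. Dkkl1 encodes a secreted protein related to the Dickkopf inhibitors of Wnt signalling and is best known from the testis. Adam33 encodes a membrane-bound metalloprotease with a disintegrin domain. Igfn1 encodes a large muscle protein with immunoglobulin and fibronectin type III domains. Krt12 encodes a type I keratin best known from the corneal epithelium.

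The genes lay on 5 chromosomes of the mm9 build, so that none was a neighbour of another. Krt12 spanned chr11:99276980-99283573 on the minus strand within a keratin cluster, and Rspo1 spanned chr4:124663674-124686343 on the plus strand. Adam33 spanned chr2:130876327-130889550, Igfn1 chr1:137850155-137902919 and Dkkl1 chr7:52462895-52467253, all on the minus strand. The sequence before the start of transcription was read for the 4 of the 5 genes that matched the RefSeq promoter table (build GRCm38.p6), and is shown because the genes fell together and the lost factor is a DNA-binding protein. Each line gives the 250 bases that end at the base before the start, written 5′ to 3′ on the strand of the gene, from chr11:99422260-99422509 (minus strand) for Krt12, chr4:124986180-124986429 (plus strand) for Rspo1, chr1:136006343-136006592 (minus strand) for Igfn1 and chr7:45211884-45212133 (minus strand) for Dkkl1. Capitals mark the TATA box.
Krt12: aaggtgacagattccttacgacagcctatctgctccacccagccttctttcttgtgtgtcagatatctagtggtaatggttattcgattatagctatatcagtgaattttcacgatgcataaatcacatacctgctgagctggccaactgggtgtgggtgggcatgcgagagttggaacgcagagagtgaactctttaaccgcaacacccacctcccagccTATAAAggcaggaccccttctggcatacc
Rspo1: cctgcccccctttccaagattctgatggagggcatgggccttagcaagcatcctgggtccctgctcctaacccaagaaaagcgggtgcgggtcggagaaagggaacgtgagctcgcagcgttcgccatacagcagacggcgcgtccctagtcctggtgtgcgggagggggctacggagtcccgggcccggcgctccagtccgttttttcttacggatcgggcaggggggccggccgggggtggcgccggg
Igfn1: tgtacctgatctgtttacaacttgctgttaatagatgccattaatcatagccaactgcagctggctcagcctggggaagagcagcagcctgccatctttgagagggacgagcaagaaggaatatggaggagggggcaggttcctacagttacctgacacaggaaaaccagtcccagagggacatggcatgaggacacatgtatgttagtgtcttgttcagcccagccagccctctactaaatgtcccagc
Dkkl1: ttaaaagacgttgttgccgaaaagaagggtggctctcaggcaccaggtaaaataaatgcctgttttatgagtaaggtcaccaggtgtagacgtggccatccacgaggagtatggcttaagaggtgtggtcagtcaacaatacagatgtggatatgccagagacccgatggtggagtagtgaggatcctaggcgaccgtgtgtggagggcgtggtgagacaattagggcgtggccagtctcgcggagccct

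No motif searched on both strands was in all 4 sequences. The MEF2 response element was in none of the 4 and in 2.92% of all 32851 promoter windows of this length. The TATA box, TATAAA, was in Krt12 alone, 29 to 24 bases before the start, and in 12.4% of all windows. In Krt12 the same bases lay inside a CArG box, the element bound by the MADS box relative SRF, which 1.47% of windows held. The E-box, CANNTG, occurred 3 times in Igfn1, 2 times in Dkkl1, 1 time in Krt12 and not in Rspo1, against 66.2% of windows with at least 1. The cyclic AMP response element TGACGTCA was in none of the 4 and in 1.55% of windows. Base composition differed as much: the Rspo1 window had 66.8% G and C and 22 CpG pairs, more CpG pairs than 85.2% of windows, and the Igfn1 window had 50.8% and 1 CpG pair, against medians of 52.4% and 6. A match or its absence describes these letters only, and distal sites were not searched.

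The libraries held between 19326365 and 54128334 reads, with Mef2c cKO replicate 2 the shallowest. Levels are given as CPM, the reads of a gene scaled to 1000000 reads of its library, from whole reads recovered from the deposited RPKM values. Mef2c itself was counted at 800, 772 and 800 CPM in control replicates 1, 2 and 3 and at 1231, 1276 and 1468 CPM in the 3 cKO mice. Its means of 791 ± 16.4 (SD, n = 3) and 1325 ± 126 CPM differed by 0.74 ± 0.07 (SE) on the log2 scale (limma, adjusted p = 1.8e-04), higher in the cKO. A count over the whole gene does not separate the floxed part from the rest, so this value does not check the labels. By Western blot, the study reported a strong reduction of MEF2C protein in the cortex and hippocampus of Mef2c cKO mice. Of the other MEF2 genes Mef2d was also higher (log2 fold change 0.35 ± 0.05, adjusted p = 0.0019), and Mef2a (0.16 ± 0.06, adjusted p = 0.096) and Mef2b (0.25 ± 0.13, adjusted p = 0.27) were not called. The study, which used DESeq in place of limma, reported no significant change of Mef2a or Mef2d. Log2 levels correlated at 0.991 to 0.995 between mice of one genotype and at 0.978 to 0.981 between genotypes. Of the 14609 genes tested, 13.6% were called at an adjusted p under 0.05 and an absolute log2 fold change above 0.3, 7.74% lower and 5.87% higher in cKO mice. At an unadjusted limma p under 0.05, 2154 of the 14609 genes were lower and 2003 higher. In 17.6% of the tested genes every cKO mouse lay below every control. All 5 genes passed the filter of 0.5 CPM in every mouse of at least 1 genotype, Krt12, Rspo1 and Adam33 through the controls alone and Igfn1 and Dkkl1 in both genotypes. All 5 were called lower with groups that did not overlap, which the choice of the genes had fixed.

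Rspo1 was read 857, 1145 and 899 times in control replicates 1, 2 and 3, and 20, 7 and 42 times in cKO replicates 1, 2 and 3. Scaled to library size, controls held 25.2, 23.2 and 17.4 CPM and cKO mice 0.611, 0.362 and 0.776. The lowest control was thus 22.5 times the highest cKO mouse. Mean levels were 21.9 ± 4.02 and 0.583 ± 0.208 CPM (SD, n = 3), a 37.6-fold difference that left 2.66% of the control level. Dkkl1, the other secreted protein of the set, had 448, 763 and 621 reads in controls and 30, 13 and 29 in cKO mice. Controls therefore held 13.2, 15.4 and 12.0 CPM and cKO mice 0.916, 0.673 and 0.536. Replicate 1 was the highest of the cKO mice for Dkkl1, whereas replicate 3 was the highest for Rspo1. Dkkl1 means were 13.6 ± 1.73 and 0.708 ± 0.193 CPM, 19.1-fold apart, and 5.22% of the control level remained.

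Adam33 was the most even of the 5 genes among controls, at 18.0, 19.3 and 20.9 CPM from 611, 954 and 1077 reads. In cKO mice 22, 9 and 45 reads gave 0.672, 0.466 and 0.831 CPM. The means of 19.4 ± 1.47 and 0.656 ± 0.183 differed 29.5-fold. Igfn1, whose merged exons are the longest of the 5 at 9009 bases, had 1384, 3056 and 2737 reads in controls and 94, 36 and 156 in cKO mice. These counts corresponded to 40.7, 61.9 and 53.1 CPM in controls and to 2.87, 1.86 and 2.88 in cKO mice. Igfn1 means of 51.9 ± 10.6 and 2.54 ± 0.585 were 20.4-fold apart, and 4.89% of the control level remained. Both genes were thus still read in every cKO mouse.

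Of the 5 genes, Krt12 had the largest ratio of means and, relative to its mean, the largest spread among controls. Control replicates 1, 2 and 3 had 138, 805 and 1179 reads, and cKO replicates had 4, 4 and 16. Levels were 4.06, 16.3 and 22.9 CPM in controls against 0.122, 0.207 and 0.296 in cKO mice. Replicate 1, the single 14-week-old mouse of each genotype, was the lowest in both, and with 1 such mouse per genotype age and mouse cannot be told apart. Means of 14.4 ± 9.55 and 0.208 ± 0.087 gave a 69.2-fold difference with 1.45% of the control level left. The ratio of the lowest control to the highest cKO mouse was 13.7 for Krt12, close to 13.2 for Dkkl1 and 14.1 for Igfn1, and 21.6 for Adam33. Without control replicate 1 the log2 fold change of Krt12 went from −5.28 to −6.02, a shift of 1.67-fold.

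**Figure D1:**
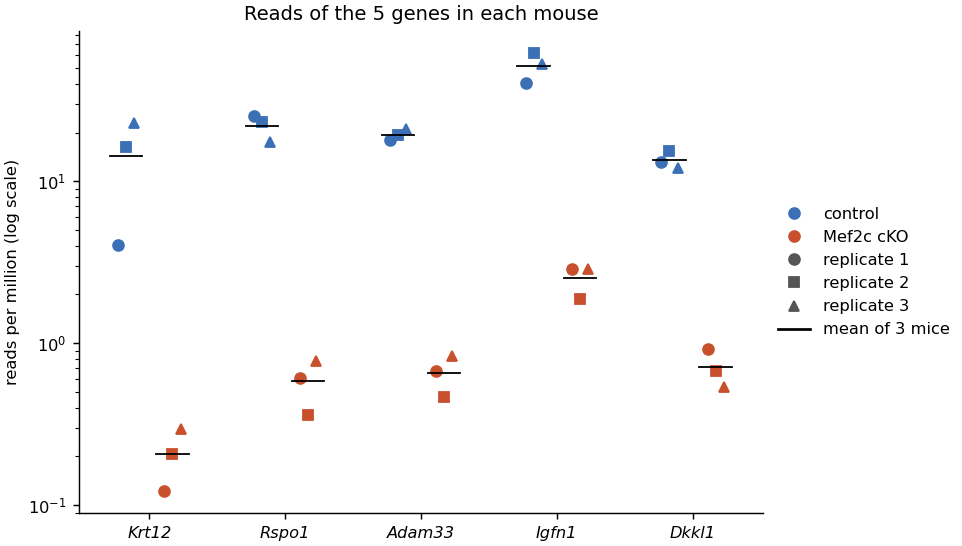
CPM (log scale) of the 5 genes in each of the 3 control and 3 Mef2c cKO mice. Each point is a mouse, its shape gives the replicate number and the black lines mark means; controls lie between 4.06 and 61.9 CPM and cKO mice between 0.122 and 2.88, with no overlap within a gene.

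In sum over the 5 genes, controls held 101, 136 and 126 CPM and cKO mice 5.19, 3.57 and 5.32. cKO replicate 2 was the lowest mouse for Rspo1, Adam33 and Igfn1, but not for Krt12 or Dkkl1. This was also the shallowest library, in which the 5 genes together had 69 reads. Divided by the length of their merged exons, the order of the genes in controls changed. Dkkl1 stood highest at 15.0 ± 1.92 CPM per kilobase, followed by Rspo1 at 11.3 ± 2.08, Krt12 at 7.74 ± 5.13, Igfn1 at 5.76 ± 1.18 and Adam33 at 3.60 ± 0.272. The level of Krt12 lay within its spread of both neighbours in this order, and the other neighbours were further apart than either SD. These control levels per kilobase were above those of 32.7% (Adam33) to 71.0% (Dkkl1) of 13467 genes with a known length. In cKO mice Dkkl1 was again the highest per kilobase, at 0.784 ± 0.213, followed by Rspo1 at 0.301 ± 0.107, Igfn1 at 0.282 ± 0.065, Adam33 at 0.122 ± 0.034 and Krt12 at 0.112 ± 0.047, and the last 2, like Rspo1 and Igfn1, lay within their spread of each other.

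The 5 genes formed the end of a continuous distribution. Dkkl1, the last inside, had a fitted log2 fold change of −4.098 ± 0.193 (SE), and Wnt2b, the first outside, had −4.096 ± 0.278. Wnt2b, a secreted Wnt ligand, went from 5.13 ± 1.04 to 0.212 ± 0.095 CPM, 24.1-fold, more than the ratio of means for Dkkl1 or Igfn1. Ranks 7 to 10 were taken by Arr3 (cone arrestin, −3.77), Hrnr (hornerin, an epidermal protein, −3.54), Agmat (agmatinase, −3.54) and Samd3 (−3.50). Hrnr had 52, 51 and 39 reads in controls and 0 in every cKO mouse, so that it was at least 39.2-fold lower when 3 reads over the group are taken as the floor. In all, 6 genes were lower by at least 16-fold on the fitted scale and 18 by at least 8-fold, whereas 0 were higher by 16-fold and 8 by 8-fold. The order at this end moved with single mice: without control replicate 2 Dkkl1 ranked 7th, and without cKO replicate 3 also 7th. With a pseudocount of 1 in place of 0.1 CPM Igfn1 ranked first.

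**Figure D2:**
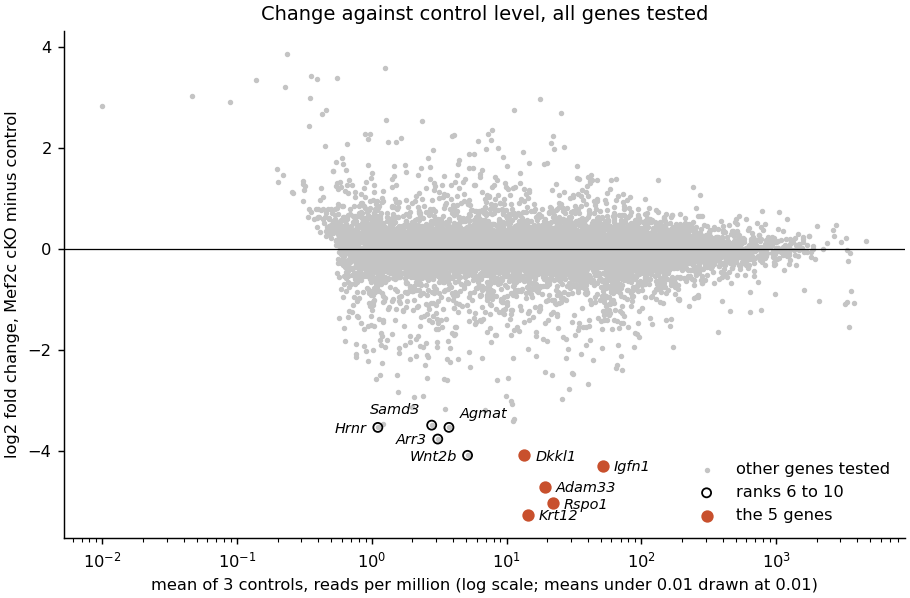
Fitted log2 fold change (Mef2c cKO minus control) against the mean control level in CPM (log scale) for all 14609 genes tested. The 5 genes (filled, coloured) lie between −5.28 and −4.10 at control means of 13.6 to 51.9, and the genes ranked 6 to 10 (open circles) lie at lower control levels, from 1.11 to 5.13.

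The spread between control mice, given without a test, set Krt12 apart in size. Its coefficient of variation among the 3 controls was 66.3%, and 4 other genes with a control mean within 2-fold of it, or 0.0962% of them, varied as much. For Igfn1 the coefficient was 20.5%, reached by 1.73% of genes at a like level, and for Rspo1 18.3%, reached by 4.88%. Dkkl1 at 12.8% and Adam33 at 7.56% were unremarkable, with 19.5% and 44.8% of like genes as variable. The direction of the deviations was not shared. Krt12 and Adam33 were lowest in control replicate 1 and highest in control replicate 3, Rspo1 was in the opposite order, and Igfn1 and Dkkl1 were highest in control replicate 2.

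Loss of Rspo1 was accompanied by higher levels of its paralogs Rspo2 and Rspo3. Rspo2 was at 7.50, 7.33 and 8.44 CPM in controls and at 34.1, 44.3 and 42.5 in cKO mice, a log2 fold change of 2.36 ± 0.11 (SE; limma, adjusted p = 3.0e-06). Rspo3 rose from 14.2, 14.9 and 14.4 to 30.4, 24.9 and 33.0 CPM, a log2 fold change of 1.01 ± 0.11 (adjusted p = 2.3e-04). For both paralogs every cKO mouse lay above every control. Per kilobase of merged exons, Rspo1 made up 57.1 ± 5.21% (SD, n = 3) of the 3 R-spondins in controls and 1.21 ± 0.375% in cKO mice. The share of Rspo2 went from 12.0 ± 2.16% to 49.1 ± 5.97% and that of Rspo3 from 30.9 ± 3.14% to 49.7 ± 5.64%. The summed level of the 3 genes was 19.7 ± 1.92 CPM per kilobase in controls and 24.7 ± 1.98 in cKO mice. The fourth R-spondin, Rspo4, was at 0.037 CPM in controls and was not tested.

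Beyond the R-spondins, some of the receptors were called as well. Of 33 tested genes of the R-spondin and Wnt receptor pathway other than Rspo1, 5 were called lower and 5 higher, against 7.74% and 5.87% of all genes tested. The 5 higher genes included Rspo2 and Rspo3 themselves. The median log2 fold change was −0.06 against 0.01 for all genes tested. The co-receptors Lrp5 (−0.09 ± 0.11 SE) and Lrp6 (−0.01 ± 0.06) were not called. All 3 R-spondin receptors were lower. Lgr4 went from 37.6 ± 0.132 to 26.0 ± 1.85 CPM (log2 fold change −0.53 ± 0.07 SE, adjusted p = 0.0011), Lgr5 from 7.86 ± 0.664 to 4.35 ± 0.096 (−0.84 ± 0.11, adjusted p = 0.0010) and Lgr6 from 2.78 ± 0.123 to 0.969 ± 0.249 (−1.45 ± 0.20, adjusted p = 0.0011). Znrf3, the ligase that removes Frizzled receptors, was at −0.43 ± 0.12 with an adjusted p of 0.041, a call lost without control replicate 2 or 3 or any one cKO mouse, with the replicate number as a block (adjusted p = 0.071), without a variance trend or without a filter on low values, with an adjusted p of up to 0.14. Its relative Rnf43 was not called (0.14 ± 0.15). Among the Frizzled receptors Fzd10, tested through the controls alone, was lower (−1.85 ± 0.35, adjusted p = 0.0062), Fzd8 (1.16 ± 0.16), Fzd7 (0.91 ± 0.16) and Fzd1 (0.78 ± 0.15) were higher, and the other 6 were not called. Of 14 intracellular components and transcriptional targets in the list 0 were called by limma, with 1 at an unadjusted p under 0.05. They included Ctnnb1 (−0.10 ± 0.07), Lef1 (−0.21 ± 0.14) and the Wnt target Axin2 (−0.24 ± 0.10, adjusted p = 0.17).

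**Figure D3:**
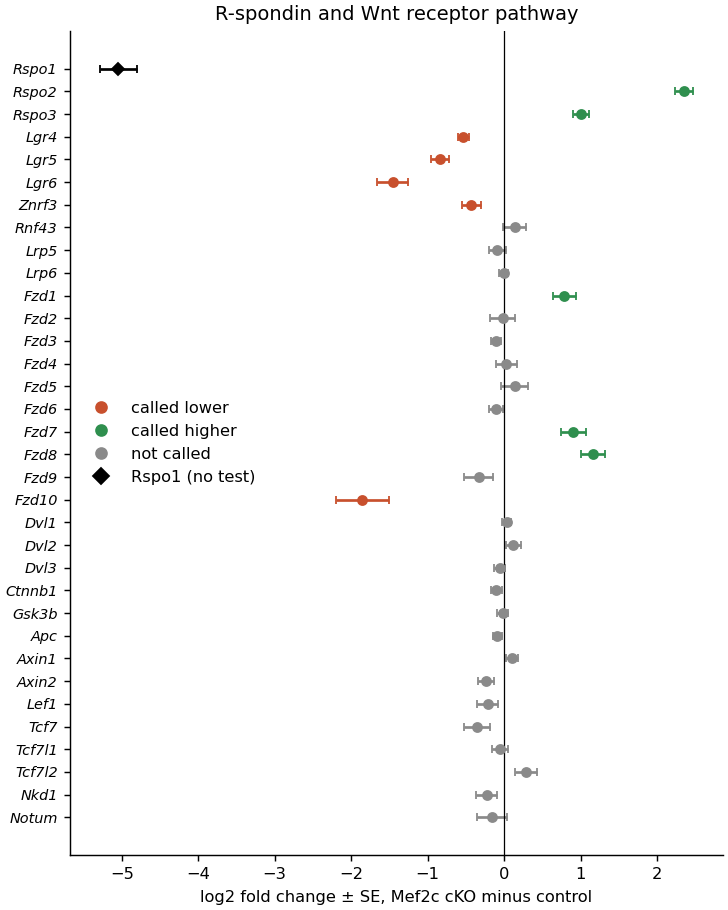
Fitted log2 fold change (Mef2c cKO minus control, points) with its standard error (bars) for Rspo1 and the 33 tested genes of the R-spondin and Wnt receptor pathway. Rspo1 lies at −5.04, Rspo2 at 2.36 and Rspo3 at 1.01, the receptors Lgr4, Lgr5 and Lgr6 are below 0, and the intracellular components were not called.

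Other than Dkkl1 and Adam33 themselves, the genes called in their families were Dkk3, Adam19 and Adam11. Of 4 tested genes of the Dickkopf family and its Kremen receptors, Dkk3 was higher, from 274 ± 17.5 to 577 ± 40.1 CPM (log2 fold change 1.08 ± 0.07 SE, adjusted p = 1.7e-05), and 0 were lower, at an unadjusted p under 0.05 also 0. Of all genes tested 5.87% were higher and 7.74% lower, and 4 genes are too few to set a share beside these. Dkk3 is the abundant Dickkopf relative of the brain. Of 13 tested ADAM metalloproteases 2 were called, a share near the 13.6% of all genes tested. Adam19 was higher (0.43 ± 0.08, adjusted p = 0.0060) and Adam11, which lacks protease activity, was lower (−0.37 ± 0.08, adjusted p = 0.014). The Adam11 call was lost without control replicate 2 (adjusted p = 0.054) and without a variance trend (adjusted p = 0.052). This was the most negative change among the tested ADAM genes other than Adam33.

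Few keratins other than Krt12 had enough reads to test. Of 31 other keratin genes, 7 had enough reads to test and 7 had no read in any mouse. Krt80 went from 9.80 ± 0.978 to 4.24 ± 0.389 CPM (log2 fold change −1.19 ± 0.12 SE, adjusted p = 2.3e-04) and Krt77 from 1.76 ± 0.108 to 0.458 ± 0.321 (−1.91 ± 0.39, adjusted p = 0.0097). Krt77 entered the test through the controls alone. Both are epithelial keratins, and 0 keratins were called higher (1 at an unadjusted p under 0.05). Among all genes tested 7.74% were called lower and 5.87% higher, and 7 keratins are too few to set a share beside these. Of 13 tested muscle proteins with immunoglobulin or fibronectin domains like those of Igfn1, 4 were lower and 0 higher (0 at an unadjusted p under 0.05), against 7.74% and 5.87% of all genes, with a median log2 fold change of −0.17. Mybpc3, the cardiac myosin-binding protein C, went from 1.20 ± 0.220 to 0.018 ± 0.032 CPM (−3.48 ± 0.29, adjusted p = 6.7e-05), and it entered the test through the controls alone. The sarcomere proteins Myom3 (−1.12 ± 0.23, adjusted p = 0.0094) and Mypn (−0.995 ± 0.195, adjusted p = 0.0075) were also lower. Mybpc1, the slow skeletal relative of Mybpc3, was at −0.55 ± 0.16 with an adjusted p of 0.042, which rose to as much as 0.14 and lost the call without any one of the controls or without cKO replicate 1 or 2. It was also lost with the replicate number as a block (adjusted p = 0.087), without a variance trend and without a filter on low values. Titin, the largest of these proteins, was not called (Ttn, 0.45 ± 0.21, adjusted p = 0.19).

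Markers of layer 4 were lower in cKO mice, and the direction of the 5 genes themselves was fixed by their choice. All 8 markers of layer 4 neurons were called lower, with a median log2 fold change of −1.74 and a summed level of 358 to 393 CPM in controls and 119 to 131 in cKO mice. Rorb, a nuclear receptor of layer 4 neurons, was at 26.1 ± 0.861 and 7.73 ± 0.752 CPM (−1.74 ± 0.10 SE, adjusted p = 6.0e-06), and Cux2, which also marks layer 2/3, was at 96.2 ± 5.80 and 28.7 ± 2.50 (−1.74 ± 0.08, adjusted p = 2.6e-06). Scnn1a, the marker with the most negative change, went from 10.2 ± 0.536 to 1.66 ± 0.239. Against 7.74% lower and 5.87% higher of all genes tested, of 12 layer 2/3 markers 6 were lower and 4 higher, of 9 layer 5 markers 3 were lower and 2 higher, and of 9 layer 6 markers 0 were lower, at an unadjusted p under 0.05 also 0, and 4 higher. Without cKO replicate 2 the count of higher layer 6 markers was 8, and without a variance trend the count of lower layer 5 markers was 1. Fezf2 of layer 5 was at −0.46 ± 0.12 (adjusted p = 0.025), a call lost without control replicate 1 or 2, cKO replicate 2 or the variance trend, with an adjusted p of up to 0.086, and Foxp2 of layer 6 was not called. In bulk tissue fewer cells of a type and less RNA per cell cannot be told apart, and the part of the layer markers in the loss of the 5 genes was not tested.

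Markers of other cell types were counted in the same way, beside the same shares of all genes. Summed levels of the markers of interneurons (777 to 870 CPM in controls and 821 to 873 in cKO mice) overlapped between genotypes, and 1 was lower and 2 higher of 12. Microglial and endothelial markers gave 0 calls of 10 each by limma, with 3 and 1 lower at an unadjusted p under 0.05. Of 10 meningeal markers 1 was higher, and of 10 astrocyte markers 1 was lower and 2 higher. Summed astrocyte levels did not overlap, at 4850 to 5141 CPM in controls and 4292 to 4558 in cKO mice. Slc1a2, the most abundant astrocyte marker, had means of 3407 and 2864 CPM and was not called. Its log2 fold change of −0.25 ± 0.07 (SE, limma adjusted p = 0.046) was under the cut-off of 0.3 in size. Of the astrocyte markers, Gfap (1.37 ± 0.15) and Aqp4 (0.73 ± 0.05) were called higher and Aldh1l1 (−0.39 ± 0.08) lower. Of 10 oligodendrocyte markers 3 were higher, with summed levels of 3266 to 5334 CPM in controls and 5256 to 6731 in cKO mice. The oligodendrocyte count was 7 without cKO replicate 1 or control replicate 3 and 1 without cKO replicate 3, and the meningeal count was 6 without cKO replicate 2. At an unadjusted p under 0.05 all 10 oligodendrocyte markers were higher, against 2154 lower and 2003 higher of all 14609 genes tested. The part of these lists in the loss of the 5 genes was not tested. Slc17a7, which encodes the vesicular glutamate transporter of cortical excitatory neurons and lies 31387 bases from Dkkl1, was at 1191 ± 48.3 and 1241 ± 47.2 CPM and was not called (0.06 ± 0.06).

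**Figure D4:**
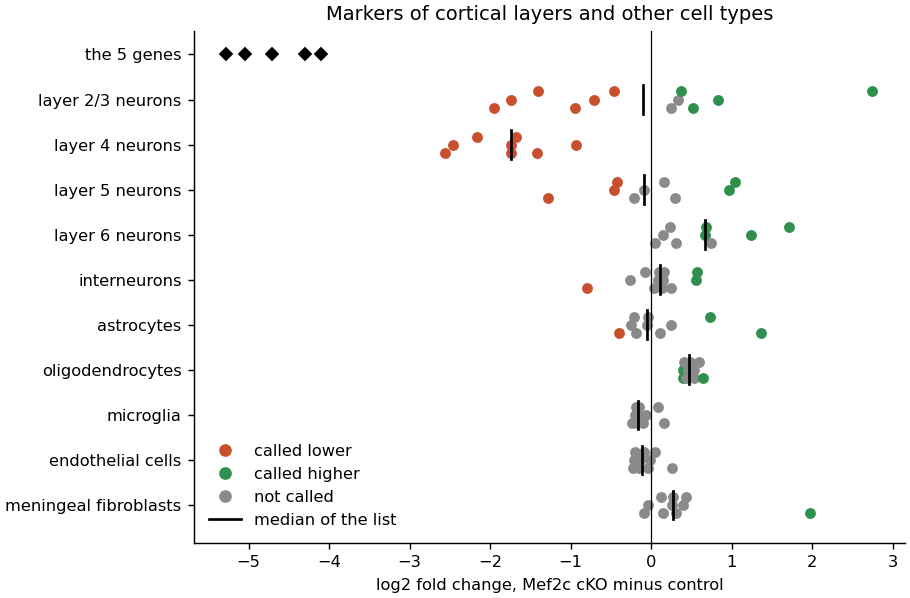
Fitted log2 fold change (Mef2c cKO minus control) of the markers of each cell type (points coloured by call, median as a black line) and of the 5 genes (black diamonds). The 5 genes were chosen as the most negative of all tested genes, so their place to the left is fixed by the choice. The layer 4 list has its median at −1.74, and the layer 6 list has its median at 0.67.

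The called genes next to the 5 genes lay around Igfn1 and Dkkl1. Of the 5 annotated genes on each side, 50 in all, 26 were tested. Of these, 3 (11.5%) were called lower and 0 higher, against 7.74% lower and 5.87% higher of all genes tested. Around Igfn1 2 of 8 tested genes were called, with a median log2 fold change of −0.65, and around Dkkl1 1 of 7, with −0.10. Around Rspo1 and Adam33 0 of 5 each were called, with medians of −0.03 and −0.06. At an unadjusted limma p under 0.05, 6 of the 26 were lower and 0 higher, against 2154 and 2003 of all 14609 genes. Of the 3 called neighbours, 2 flanked Igfn1 on either side and encode muscle proteins. Tnnt2, cardiac troponin T, lay 101318 bases away and went from 4.04 ± 0.483 to 1.16 ± 0.155 CPM (log2 fold change −1.72 ± 0.17 SE, adjusted p = 1.7e-04). Cacna1s, the calcium channel of skeletal muscle, lay 46408 bases away on the other side and went from 0.942 ± 0.324 to 0.253 ± 0.054 (−1.53 ± 0.28, adjusted p = 0.0052). Cacna1s passed the filter of 0.5 CPM through the controls alone and could hardly have been called higher. The gene nearest to Igfn1, Tmem9, at 1877 bases, was not called (0.14 ± 0.07), nor were Pkp1 (−1.22 ± 0.65) and the troponin I gene Tnni1 (−1.74 ± 0.61, adjusted p = 0.090) on the side of Tnnt2. The third was Trpm4, a calcium-activated cation channel 90749 bases from Dkkl1, at 39.2 ± 4.89 and 21.7 ± 2.67 CPM (−0.85 ± 0.12, adjusted p = 0.0010). Closer to Dkkl1, Ccdc155 at 2633 bases (−0.27 ± 0.12) and Tead2 at 3870 bases (−0.02 ± 0.23) were not called. Without cKO replicate 2 the count was 5, of which 1 was higher.

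Neither neighbour of Adam33 was called, Gfra4 at 7503 bases being at 0.14 ± 0.09 and Siglec1 having too few reads to test, and Gnl2, 7486 bases from Rspo1, was at −0.18 ± 0.06 (adjusted p = 0.090). Around Krt12, 1 of 10 genes was tested, Krt10, at 4.45 ± 1.29 and 5.21 ± 0.869 CPM and not called. Krt20, 6144 bases from Krt12, had 6, 9 and 4 reads in controls and 0 in each cKO mouse, too few to test. Annotated transcripts on the opposite strand overlapped Krt12 (A830036E02Rik) and Rspo1 (Gm12930). The library kept strand, but whether the counting used it is not given in the sources used here, so reads of these 2 genes and of their antisense partners cannot be told apart. Adam33, Igfn1 and Dkkl1 overlapped no annotated gene.

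**Figure D5:**
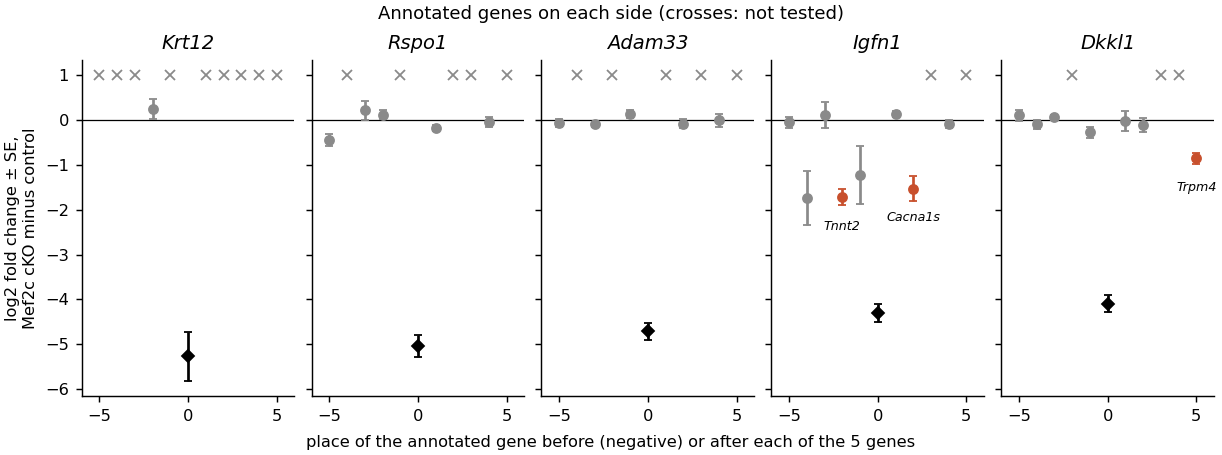
Fitted log2 fold change (Mef2c cKO minus control) with its standard error for the annotated genes at places 1 to 5 before and after each of the 5 genes (black diamonds at place 0); crosses stand for genes that were not tested. Of the 26 tested neighbours Tnnt2, Cacna1s and Trpm4 were called lower, between −1.72 and −0.85. The black diamonds hold the values the 5 genes were chosen by.

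Over the 6 mice, Wnt2b was the first or second of the genes outside the 5 in likeness to each of them. Likeness was measured as the root mean square difference of log2 levels after the control mean was subtracted, among 14485 genes, a measure that contains the change the genes were chosen for. Adam33 and Rspo1 were 0.33 apart, Adam33 and Igfn1 also 0.33, and Igfn1 and Dkkl1 0.34. Wnt2b was the nearest gene outside the 5 for Rspo1 (0.68), Adam33 (0.51), Igfn1 (0.34) and Dkkl1 (0.35), and the nearest but one for Krt12 (1.29), after Arr3 (1.20). The third place was held by Agmat for Krt12, Hrnr for Rspo1 and Dkkl1, and Mybpc3 for Adam33 and Igfn1, and Samd3 was second for Dkkl1 at 0.47. Samd3, Hrnr (0.51) and Arr3 (0.55) were nearer to Dkkl1 than Adam33, Rspo1 or Krt12 was. Of the 5, Krt12 was the farthest from its nearest gene, 0.84 from Adam33.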

How the data were processed

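Per the labels and the methods of the study, poly(A) RNA of 3 control and 3 Mef2c cKO mice was made into directional libraries, aligned to mm9 with TopHat and Bowtie and counted with HTSeq (versions not given in the sources used here), and the authors deposited RPKM values per gene. Within each deposited table the gene lengths behind RPKM repeated in a cycle of 65 to 296 genes along the Entrez gene identifiers sorted as text, so that a gene was divided by unrelated lengths in different mice (Dkkl1 by 3422 to 1409422 bases). Because RPKM values of 1 length are whole multiples of 1 read, whole counts and library totals were recovered for 99.4 to 99.9% of values above 0, adding to 99.7% or more of each total. A further 92 rows carry no symbol and were not used. The study used a test for counts, and here limma 3.58.1 (R 4.3.3, variance trend) was fitted to log2(CPM + 0.1), CPM being recovered reads scaled to 1000000 per library, for genes above 0.5 CPM in every mouse of at least 1 genotype, with Benjamini-Hochberg adjustment over all genes tested. Fold changes on this scale understate those of low genes. Both steps were run on simulated data. For the recovery, the simulated cycles were shorter than those of most deposited tables and the lengths spanned a narrower range, so longer cycles were not covered. The p-values set the difference between genotypes against the spread between mice. For this the variance of each gene was drawn toward a trend over all genes tested. Intervals between genes and exon lengths came from the mm9 annotation GENCODE M1, and promoters from RefSeq. Genes named by plan were the 5 genes, the MEF2 genes, ranks 6 to 10 and the 3 genes most like each. The plan also held the called genes with the largest change in each family list, Rspo2, Rspo3 and Dkk3. Nearest and called neighbours and the layer markers Rorb, Cux2, Fezf2 and Foxp2 completed it. Lgr4, Lgr5, Znrf3, Fzd1, Fzd7, Scnn1a, Krt10, Krt20, Slc17a7, Epha10, Dnali1, Ttn, Tnni1, Pkp1 and the uncalled pathway genes were added after their values were seen. So were the astrocyte markers Slc1a2, Gfap, Aqp4 and Aldh1l1. The 5 genes, the lists and the tests were chosen with earlier results of these data known. Normalisation, filter, pseudocount, replicate block and each mouse left out were varied.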

Additional observations from a re-analysis of the deposited data

How the results depend on the processing

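The count of 1988 called genes stayed within 1.5-fold under 13 alternatives, from 1644 to 2020, with 2 exceptions. On the deposited RPKM values, whose lengths differ between mice, 14 of 7974 genes were called. Asking for a log2 change of at least 1 in either direction left 470. Same-numbered mice, which were alike in age, did not deviate from their genotype means in the same direction (correlations −0.175, −0.110 and −0.080). These values do not tell whether such mice shared a litter. A fit with the replicate number as a block called 1695 genes and 3 neighbours. The counts of the 5 family lists stayed within 1.5-fold except for the ADAM genes without a variance trend, of which 1 was called instead of 2. Under the block the calls of Znrf3 and Mybpc1 were lost. The count of called neighbours ranged from 3 to 5 with single mice left out, the 5 without Mef2c cKO replicate 2, when Epha10 and Dnali1 were added. Each of the 5 genes stayed lower in every fit that held it, a sign that their choice by this loss in the same mice had largely fixed. Larger pseudocounts shrank the changes: at 1 CPM the log2 fold changes ran from −3.09 (Dkkl1) to −3.90 (Igfn1). On the deposited RPKM values Rspo1 was at −3.91 and Igfn1 at −4.35, and Krt12, Adam33 and Dkkl1 did not pass the filter. Depth limits the cKO values most, since they rest on 4 to 156 reads.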
